A study of Mus musculus with 18 samples.

Results

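The genes described here are 10 markers of oligodendrocyte progenitors, chosen by symbol: Olig1, Olig2, Sox10, Pdgfra, Cspg4, Cspg5, Ptprz1, Lhfpl3, Gpr17 and Scrg1. All 10 were measured, each by 1 probe set, among 19938 genes on 18 Affymetrix mouse Gene ST 1.0 arrays of mouse medulloblastomas, which are tumours of the cerebellum. The arrays fell into 5 groups. The Ptch tumours comprised the subtypes GFD-Ptch (n = 2), GFI-Ptch (n = 4) and NG-Ptch (n = 4). The Smo tumours comprised GFD-Smo;GFAP-cre (n = 4) and NG-Smo;Atoh1-CreER (n = 4), written GFD-Smo and NG-Smo below. The labels do not say what GFD, GFI and NG stand for, which alleles of Ptch or Smo were used, how old the mice were, or whether replicates came from separate animals, so p-values measure the spread between these samples. All GFD-Smo arrays carried GFAP-cre and all NG-Smo arrays Atoh1-CreER, so subtype and Cre driver cannot be told apart there. No Ptch title names a Cre driver, so model and driver cannot be told apart between Smo and Ptch groups either. The GFAP promoter is active in neural stem cells and glia, and the Atoh1 promoter in granule neuron progenitors, with CreER being a form of Cre that is switched on by tamoxifen. One GFI-Ptch array, replicate 4, came per its labels from a tumour that progressed out of an earlier one in a female host of the NSG strain, which lacks lymphocytes, and is called the transplanted tumour.

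Oligodendrocyte progenitors are dividing glial cells that spread through the brain and spinal cord and give rise to myelinating oligodendrocytes. Their lineage is set up by the basic helix-loop-helix factors Olig1 and Olig2 and the HMG-box factor Sox10, they divide in response to platelet-derived growth factor through the receptor Pdgfra, and their surface carries proteoglycans such as Cspg4. Hedgehog signalling, the pathway that Ptch1 holds back and Smo transmits, induces Olig2 in the embryonic spinal cord. Several of the genes are not exclusive to these cells: Ptprz1, Cspg5 and Scrg1 are also made by astrocytes, and Olig2 by other neural progenitors. In bulk tumour RNA, fewer cells of a type and less RNA per cell cannot be told apart.

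Levels are log2 values as deposited, with medians per array between 7.74 and 7.87 and lower quartiles between 6.21 and 6.38, and a change is a difference of log2 group means. The number of arrays limits the precision. Changes were tested with limma over all 19938 genes, with 1 mean per group and a spread shared by the 5 groups, and a gene was called at a Benjamini-Hochberg adjusted p under 0.05. Of the 18 arrays, 6 had Y-linked transcripts (mean log2 level 9.84 to 10.16 over Eif2s3y, Kdm5d and Uty, against 5.37 to 5.54 in the others), and 3 of 13 arrays with a male or female label went against it. Both GFD-Ptch arrays had these transcripts, as did 1 of 4 GFI-Ptch, 1 of 4 GFD-Smo, 2 of 4 NG-Smo and 0 of 4 NG-Ptch arrays. Markers of developing muscle stood at a mean of 9.95 in the transplanted tumour and between 7.13 and 8.0 in the other 17 arrays.

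The promoter windows of 4 members are shown because 2 of them, Ptprz1 and Lhfpl3, were called between GFD-Smo and GFD-Ptch, while Olig2 and Pdgfra were not. Windows run from 250 bases before to 50 bases after a transcription start (GRCm38.p6, + strand), and 5 of the 10 genes had one, that of Cspg4 not being shown. For Ptprz1 and Pdgfra the start used is not the RefSeq start of the gene, which is 22875315 and 75151322. The Pdgfra window lies wholly inside the gene. Capitals mark matches, on both strands, to CANNTG (the E-box, the class of site that helix-loop-helix factors bind) or to ACAAT (a core that SOX factors bind). The windows lie at chr6:22875252-22875551 for Ptprz1, chr5:22745804-22746103 for Lhfpl3, chr16:91225300-91225599 for Olig2 and chr5:75152001-75152300 for Pdgfra.
Ptprz1: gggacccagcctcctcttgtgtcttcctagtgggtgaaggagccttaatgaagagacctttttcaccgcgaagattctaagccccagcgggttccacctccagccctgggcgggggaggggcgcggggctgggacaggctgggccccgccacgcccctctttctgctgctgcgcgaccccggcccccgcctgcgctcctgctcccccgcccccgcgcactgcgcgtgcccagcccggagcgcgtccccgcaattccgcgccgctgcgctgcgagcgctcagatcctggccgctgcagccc
Lhfpl3: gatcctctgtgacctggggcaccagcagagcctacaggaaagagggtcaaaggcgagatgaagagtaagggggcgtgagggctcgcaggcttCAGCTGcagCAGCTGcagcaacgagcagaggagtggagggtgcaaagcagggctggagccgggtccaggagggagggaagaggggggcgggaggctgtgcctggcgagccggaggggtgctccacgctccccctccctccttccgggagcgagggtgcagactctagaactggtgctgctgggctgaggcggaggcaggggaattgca
Olig2: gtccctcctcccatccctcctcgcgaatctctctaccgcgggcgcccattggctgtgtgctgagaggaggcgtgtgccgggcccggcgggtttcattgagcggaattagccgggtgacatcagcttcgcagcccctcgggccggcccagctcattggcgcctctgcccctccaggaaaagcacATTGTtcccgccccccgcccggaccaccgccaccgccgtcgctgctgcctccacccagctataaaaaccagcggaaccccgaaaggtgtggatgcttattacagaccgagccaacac
Pdgfra: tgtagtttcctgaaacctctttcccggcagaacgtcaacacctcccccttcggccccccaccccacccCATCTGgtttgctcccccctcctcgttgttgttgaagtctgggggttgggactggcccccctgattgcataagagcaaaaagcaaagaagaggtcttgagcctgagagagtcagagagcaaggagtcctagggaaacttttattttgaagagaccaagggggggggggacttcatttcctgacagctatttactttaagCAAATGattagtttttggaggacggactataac
CANNTG was found 2 times in Lhfpl3, 2 times in Pdgfra and 0 times in Ptprz1 and Olig2, and it occurs in 72.3% of 32851 promoter windows of this length. ACAAT was found once in Olig2 and in none of the other 3, against 31.0% of all windows. The letters GACCACCCA, a site bound by the Hedgehog effectors of the GLI family, were in none of these 4 windows and in 0.253% of all windows.

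Among the lineage transcription factors, Olig1 varied most between groups. It read 8.89 and 8.19 in GFD-Ptch, 9.01, 9.47, 8.57 and 6.92 in GFI-Ptch, and 9.88, 9.87, 10.03 and 9.72 in NG-Ptch. In Smo tumours Olig1 read 10.09, 10.16, 10.08 and 10.46 in GFD-Smo, and 9.08, 9.69, 10.47 and 9.84 in NG-Smo. All GFD-Ptch and GFI-Ptch arrays lay below all NG-Ptch arrays, while the 2 Smo groups overlapped.

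Olig2, the partner of Olig1 on chromosome 16 and the factor that specifies the lineage, was much flatter. It read 10.01 and 9.81 in GFD-Ptch, 9.57, 9.85, 9.37 and 8.79 in GFI-Ptch, and 9.99, 10.14, 10.46 and 10.15 in NG-Ptch. In Smo tumours it read 10.10, 10.16, 10.01 and 10.46 in GFD-Smo, and 9.31, 9.76, 10.55 and 10.18 in NG-Smo. GFD-Ptch overlapped NG-Ptch here, GFI-Ptch lay below NG-Ptch, and GFD-Smo lay within the range of NG-Smo. Sox10, which switches on myelin genes, averaged 8.06 ± 0.08 in GFD-Ptch, 8.04 ± 0.60 in GFI-Ptch and 8.77 ± 0.29 in NG-Ptch, and 8.66 ± 0.08 in GFD-Smo and 8.89 ± 0.60 in NG-Smo (SD, n = 2, 4, 4, 4 and 4).

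Among the receptors, Pdgfra had its highest group mean in NG-Ptch. It read 11.43 and 11.76 in GFD-Ptch, 11.85, 11.75, 11.53 and 9.26 in GFI-Ptch, and 12.34, 12.09, 12.20 and 11.85 in NG-Ptch. In the Smo tumours it read 11.48, 11.72, 11.60 and 11.60 in GFD-Smo, and 11.52, 10.96, 12.20 and 11.75 in NG-Smo. All GFD-Ptch and GFD-Smo arrays lay below all NG-Ptch arrays, GFI-Ptch reached the lower edge of NG-Ptch at 11.85, and NG-Smo overlapped it. The transplanted tumour differed by -2.45 from the mean of the other 3 GFI-Ptch arrays.

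Ptprz1, a receptor-type tyrosine phosphatase that binds the growth factors pleiotrophin and midkine, had a far wider span. It read 8.77 and 8.13 in GFD-Ptch, 10.34, 10.88, 9.28 and 6.87 in GFI-Ptch, and 10.81, 10.89, 10.62 and 10.20 in NG-Ptch. In Smo tumours it read 11.63, 11.88, 11.76 and 11.88 in GFD-Smo, and 10.49, 10.03, 11.23 and 11.14 in NG-Smo. The GFD-Smo arrays were the 4 highest of all 18, and the GFD-Ptch pair and the transplanted tumour were the lowest. Gpr17, a G protein-coupled receptor made for a short time as progenitors commit to differentiation, read 7.73 and 8.02 in GFD-Ptch, 8.08, 8.48, 7.51 and 7.07 in GFI-Ptch, and 9.41, 8.92, 9.46 and 8.57 in NG-Ptch. GFD-Ptch and GFI-Ptch were thus apart from NG-Ptch for Gpr17, whereas it read 9.54, 9.33, 9.28 and 9.63 in GFD-Smo inside an NG-Smo range of 8.04 to 10.42.

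Of the surface proteoglycans, Cspg5 (neuroglycan C, a transmembrane protein with an EGF-like domain) read 8.60 and 7.99 in GFD-Ptch, 9.99, 10.16, 8.92 and 7.91 in GFI-Ptch, and 10.26, 10.13, 10.42 and 10.08 in NG-Ptch. It read 10.33, 10.29, 10.27 and 10.35 in GFD-Smo, and 9.98, 10.41, 10.83 and 10.41 in NG-Smo. GFD-Ptch lay apart from NG-Ptch, GFI-Ptch reached into the NG-Ptch range, and both Smo groups sat near NG-Ptch. Cspg4, the proteoglycan by which these cells are often stained, averaged 8.36 ± 0.11 in GFD-Ptch, 8.33 ± 0.50 in GFI-Ptch and 9.14 ± 0.26 in NG-Ptch, and 9.01 ± 0.14 in GFD-Smo and 9.18 ± 0.48 in NG-Smo (SD, n = 2, 4, 4, 4 and 4).

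Scrg1, a small secreted protein first found through its rise in scrapie-infected brain, had the widest span of group means, while over single arrays Ptprz1 spanned more. It read 6.97 and 6.62 in GFD-Ptch, 8.80, 9.05, 7.64 and 6.13 in GFI-Ptch, and 9.54, 9.25, 9.40 and 8.81 in NG-Ptch. In the Smo tumours it read 10.75, 10.45, 10.77 and 10.66 in GFD-Smo, and 9.27, 9.48, 10.08 and 9.31 in NG-Smo. The GFD-Ptch values lay near the lower quartile of the arrays, and every GFD-Smo array lay above every other array. Lhfpl3, a membrane protein of the LHFPL family, read 8.75 and 8.65 in GFD-Ptch, 10.02, 10.52, 8.97 and 7.91 in GFI-Ptch, and 10.88, 10.54, 10.84 and 10.47 in NG-Ptch. It averaged 10.84 ± 0.08 in GFD-Smo and 10.94 ± 0.50 in NG-Smo (SD, n = 4 each), and its 2 GFD-Ptch arrays lay below all NG-Ptch and Smo arrays.

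**Figure D1:**
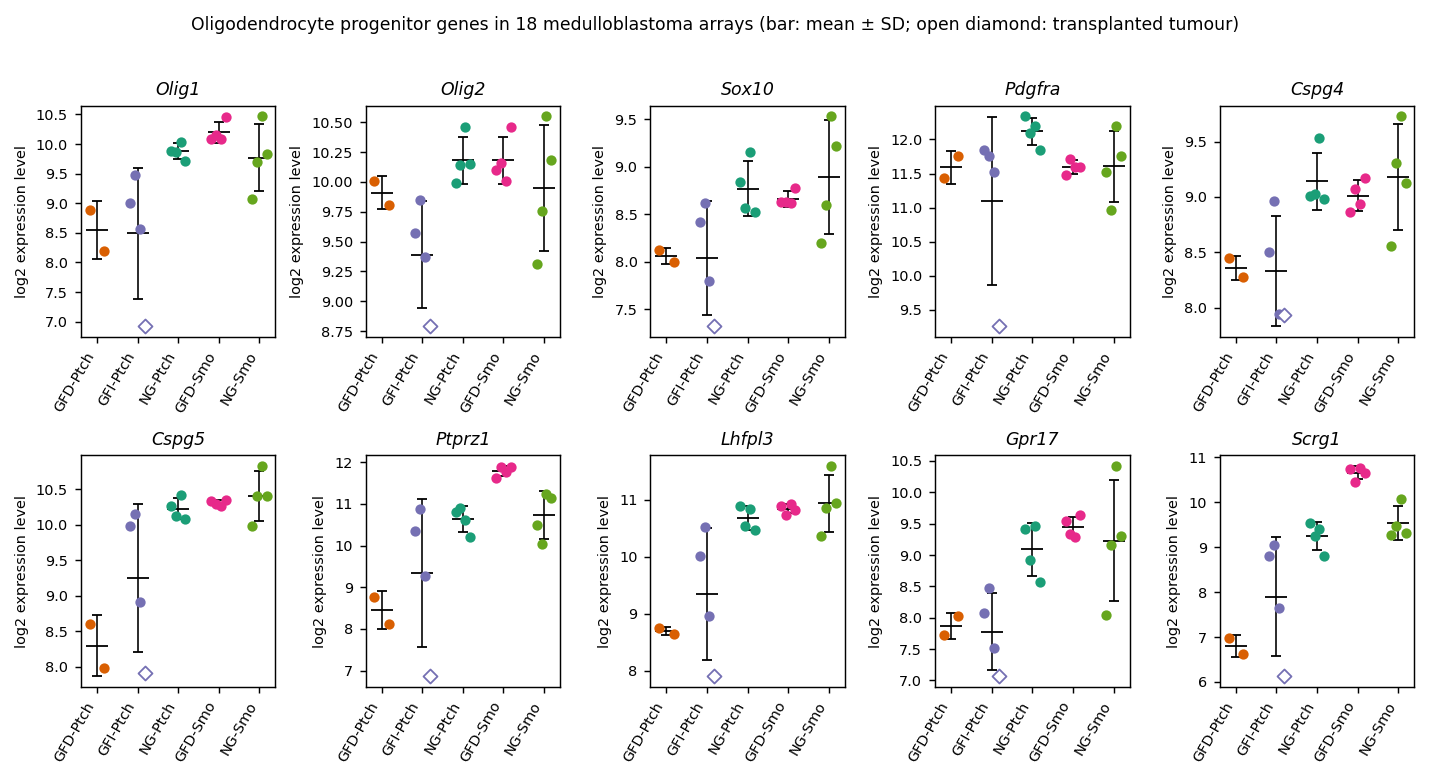
Log2 expression level (vertical axes, 1 panel per gene) of the 10 oligodendrocyte progenitor genes in the 5 groups (horizontal axes), with 1 point per array and the mean ± SD as bars. The open diamond is the transplanted GFI-Ptch tumour, which has the lowest level of all 18 arrays for every gene, and the GFD-Smo arrays lie close together, as for Scrg1 between 10.45 and 10.77.

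By group mean, GFD-Smo was highest for 4 of the genes (Olig1, Ptprz1, Gpr17, Scrg1), NG-Smo for 4 (Sox10, Cspg4, Cspg5, Lhfpl3) and NG-Ptch for 2 (Olig2, Pdgfra). The lowest mean was that of GFD-Ptch for 4 genes (Cspg5, Ptprz1, Lhfpl3, Scrg1) and that of GFI-Ptch for the other 6. The GFI-Ptch ranks rested largely on the transplanted tumour. The other 3 GFI-Ptch arrays averaged above GFD-Ptch for Olig1 (9.02 against 8.54), Sox10 (8.28 against 8.06) and Pdgfra (11.71 against 11.59). The same held for Cspg4 (8.47 against 8.36) and Gpr17 (8.02 against 7.87), but not for Olig2 (9.59 against 9.91). For Olig2, Pdgfra, Cspg5 and Lhfpl3 each group overlapped its neighbour in that order. Scrg1 and Ptprz1 ran GFD-Smo, NG-Smo, NG-Ptch, GFI-Ptch and GFD-Ptch from high to low, and of these neighbours the first pair alone did not overlap. In Cspg5, Ptprz1, Lhfpl3 and Scrg1, GFI-Ptch overlapped GFD-Ptch through the transplanted tumour alone.

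The comparison of GFD-Ptch with NG-Ptch asks how these 2 subtypes of Ptch tumour differ. All 10 genes had a lower mean in GFD-Ptch, as did 41.9% of all genes, and the members' median change was -1.28, against 0.04 over all genes, but no gene of the 10 was called by limma. The changes ran from -2.45 for Scrg1 (SE 0.55, adjusted p = 0.114) through -2.18 for Ptprz1 (adjusted p = 0.205), -1.99 for Lhfpl3 (0.131) and -1.93 for Cspg5 (0.114) to -0.28 for Olig2 (0.614). Over all genes 2 were called (0.0100%), 0 of them members, while 7 members and 16.9% of all genes had an unadjusted p under 0.05. In 9 members every GFD-Ptch array lay below every NG-Ptch array, as in 14.0% of all genes, the exception being Olig2.

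The spread shared by the fit decided these calls. Without the transplanted tumour, which enters this comparison through that spread alone, 4 members were called as lower in GFD-Ptch: Scrg1 (adjusted p = 0.00877), Cspg5 (0.0138), Lhfpl3 (0.0233) and Ptprz1 (0.0284), against 0.411% of all genes called as lower. With only the 2 groups compared in the fit 5 were called, the same 4 and Olig1 (adjusted p = 0.0301), against 0.978% of all genes called as lower.

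Subtype and Y-linked transcripts ran together in this comparison, since both GFD-Ptch arrays had the transcripts and no NG-Ptch array did. GFI-Ptch replicate 3, the one GFI-Ptch array with them, read below replicates 1 and 2 in all 10 genes, as with Scrg1 at 7.64 against 8.80 and 9.05. Adding the gender label to the model gave a median change of -0.21 over the members, and with the Y-linked level in its place -1.21, each with 0 members called. The gender label was M for the transplanted tumour, whose Y-linked level was 5.37. It was ND for NG-Ptch replicates 2, 4 and 5, and the model took ND as a class of its own. The fit with this label is therefore not a plain adjustment for sex. With the gender label Olig2 (0.50, adjusted p = 0.347), Pdgfra (0.09, 0.951) and Sox10 (0.05, 0.945) no longer had a change below 0. In the Smo tumours the arrays with Y-linked transcripts lay on both sides: NG-Smo replicate 1 was the lowest of its group in 8 genes and NG-Smo replicate 3 the highest in all 10. What part the sex of the mice has in the Ptch values was not tested beyond this.

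GFI-Ptch was then set against NG-Ptch, the same 4 NG-Ptch arrays serving in both comparisons. All 10 genes again had lower means in GFI-Ptch, as did 41.4% of all genes, with a median change of -1.15 (0.02 over all genes) and 0 members called by limma, as no gene of the 19938 was called (0%). At an unadjusted p under 0.05 stood 10 of 10 members and 8.53% of all genes. The changes lay between -1.38 for Olig1 (SE 0.41, adjusted p = 0.306) and -0.73 for Sox10 (adjusted p = 0.478), with Gpr17 at -1.31 (0.317), Scrg1 at -1.34 (0.386) and Olig2 at -0.79 (0.320). In 5 members (Olig1, Olig2, Cspg4, Gpr17 and, by a gap that 2 decimals do not show, Pdgfra) all GFI-Ptch arrays lay below all NG-Ptch arrays, as in 2.80% of all genes.

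A large share of this difference came from 1 array. The transplanted tumour was the lowest of all 18 arrays in all 10 genes, and its difference from the mean of the other 3 GFI-Ptch arrays was -3.29 for Ptprz1, -2.37 for Scrg1, -2.09 for Olig1 and -0.54 for Cspg4. Without it the median change was -0.63. Ptprz1 then stood at -0.46 (adjusted p = 0.527), Pdgfra at -0.41 (0.404) and Cspg5 at -0.53 (0.373). Gpr17 at -1.07 (adjusted p = 0.305), Olig1 at -0.86 (0.251) and Lhfpl3 at -0.85 (0.277) kept more of their difference. Among the arrays without Y-linked transcripts (3 GFI-Ptch, the transplanted tumour included, against 4 NG-Ptch) the median change was -1.18, with 0 members called. With the transplanted tumour also left out, GFI-Ptch replicates 1 and 2 gave a median of -0.37 and 0 members called, from -0.02 for Ptprz1 (adjusted p = 0.978) to -0.81 for Gpr17 (adjusted p = 0.184).

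Between GFI-Ptch and GFD-Ptch none of the 10 genes passed the threshold of limma's test. The median change, GFI-Ptch minus GFD-Ptch, was -0.03, with 0 members called and 0.00502% of all genes, while 1 member and 9.79% of all genes had an unadjusted p under 0.05. That member was Cspg5, at 0.95 (SE 0.44, adjusted p = 0.497), and Scrg1 stood at 1.10 with an interval from -0.06 to 2.27. Without the transplanted tumour the median was 0.35. The intervals are too wide to show that the 2 subtypes are alike.

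In the Smo tumours, GFD-Smo and NG-Smo were compared as the pair with the same subtype labels in another model, though they also differ in Cre driver. The 10 genes did not move together there: 5 had a higher and 5 a lower mean in GFD-Smo (lower in 53.9% of all genes), and the median change was 0.10 (-0.01 over all genes). No member was called by limma, against 5.31% of all genes, and 1 member had an unadjusted p under 0.05, against 15.9% of all genes. Scrg1 was 1.12 higher in GFD-Smo (SE 0.45, adjusted p = 0.202) and Ptprz1 1.06 higher (SE 0.60, adjusted p = 0.444), and in these 2 every GFD-Smo array lay above every NG-Smo array, as in 5.99% of all genes. Fitted with only these 2 groups, both were called (adjusted p = 0.00814 and 0.0425), against 3.02% of all genes called as higher, and Scrg1 was called without the transplanted tumour as well (0.0156, against 4.13% of all genes called as higher). The remaining 8 changes lay between -0.22 for Sox10 and 0.43 for Olig1, and the intervals reached from -0.44 to 1.29 for Olig1 and from -0.91 to 0.89 for Pdgfra.

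NG-Smo was more spread than GFD-Smo. The mean of the 10 genes had an SD of 0.50 in NG-Smo and 0.07 in GFD-Smo. GFI-Ptch was more spread, with an SD of 0.96, and near NG-Smo, at 0.52, without the transplanted tumour. In NG-Smo, replicate 3 was the highest of the group in all 10 genes and replicate 1 the lowest in 8, so that Gpr17 spanned 8.04 to 10.42 and had an SD of 0.97 in NG-Smo, against 0.17 in GFD-Smo. For Cspg5 the SD was 0.35 in NG-Smo and 0.04 in GFD-Smo. NG-Smo and NG-Ptch, the 2 NG groups, gave a median change of 0.11 (NG-Smo minus NG-Ptch), with 0 members called by limma against 1.04% of all genes, and 0 members had an unadjusted p under 0.05 against 10.6%. The largest difference was that of Pdgfra, at -0.51 (SE 0.43, adjusted p = 0.831).

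GFD-Smo was next compared with GFD-Ptch, the GFD tumours of the 2 models. The GFD-Smo titles name GFAP-cre and the GFD-Ptch titles no driver, so model and Cre driver cannot be told apart in this comparison. Here 6 of the 10 genes were called, all higher in GFD-Smo, against 8.50% of all genes called as higher and 7.10% as lower. Scrg1 was 14.5-fold higher (log2 change 3.86, SE 0.55, adjusted p = 0.00033), Ptprz1 10.1-fold (3.34, adjusted p = 0.00661), Lhfpl3 4.43-fold (2.15, 0.00873) and Cspg5 4.04-fold (2.02, 0.00623). Olig1 rose by 1.66 (SE 0.50, adjusted p = 0.0358) and Gpr17 by 1.57 (SE 0.48, adjusted p = 0.0376). Olig2 at 0.27 (adjusted p = 0.511) and Pdgfra at 0.00 (SE 0.52, adjusted p = 0.996) were not called, nor were Sox10 at 0.60 (0.226) and Cspg4 at 0.64 (0.136), though all GFD-Smo arrays lay above both GFD-Ptch arrays for the last pair. In all, 8 members had no overlap in that direction, as in 23.4% of all genes.

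Which members were called depended on single arrays. Without GFD-Ptch replicate 2, 1 member was called (Scrg1), against 997 genes in place of 3110, with Ptprz1 at 3.02, Lhfpl3 at 2.10, Gpr17 at 1.72 and Cspg5 at 1.71. Without replicate 1, Lhfpl3 at 2.19, Olig1 at 2.0 and Gpr17 at 1.42 were no longer called. In both fits the lone GFD-Ptch array is assumed to vary like the other groups. Olig1 and Gpr17 missed the threshold when any 1 GFD-Smo array was left out (adjusted p = 0.058 to 0.0717) and when the Y-linked level was added as a covariate (0.0696 and 0.0895). With the gender label in the model 3 members were called and the median change was 0.89 in place of 1.61. Olig1 then stood at 0.94 (adjusted p = 0.160), Gpr17 at 0.84 (0.165) and Lhfpl3 at 1.45 (0.0512). In GFD-Smo this label was F for replicate 2, with a Y-linked level of 10.05, and M for replicate 3, with 5.48. It was ND for replicate 4, so this fit is not a plain adjustment for sex here either. GFD-Smo replicate 2, the one GFD-Smo array with Y-linked transcripts, was the highest of its group in 2 genes and the lowest in 2. It read 10.45 for Scrg1, the lowest of its group, and 11.88 for Ptprz1, both above the GFD-Ptch arrays. What part the sex of the mice has in this comparison was not tested.

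**Figure D2:**
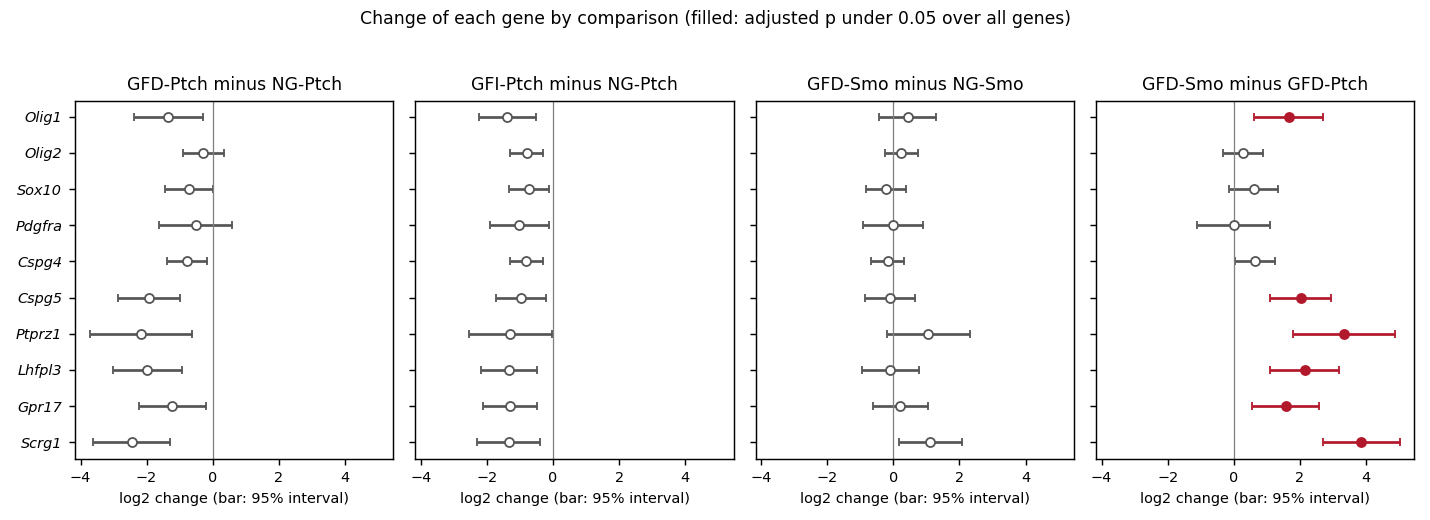
Log2 change (horizontal axes) of each gene (vertical axis) in 4 comparisons, with 95% intervals from limma as bars and filled red points for genes called at an adjusted p under 0.05 over all genes. All 10 points lie left of 0 in both Ptch comparisons without a call, the GFD-Smo minus NG-Smo points sit around 0 apart from Ptprz1 (1.06) and Scrg1 (1.12), and 6 points are called in GFD-Smo minus GFD-Ptch.

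The GFD minus NG change in Smo tumours less that in Ptch tumours was tested as the difference between the models. In Smo tumours GFD and NG also differ in Cre driver, so subtype, model and driver cannot be told apart in it. The difference was below 0 for 0 of the 10 genes (4 with the gender label in the model, from -0.28 to -0.10) and for 60.5% of all genes, with a median of 1.59 against -0.06 over all genes. It was called for Scrg1 (3.57, SE 0.71, adjusted p = 0.0124), whose change was -2.45 in Ptch tumours and 1.12 in Smo tumours. That is 1 of 10 members, against 2.40% of all genes called in this direction. Ptprz1 came next at 3.24 (SE 0.94, adjusted p = 0.0704), then Cspg5 at 1.83 (0.0860), Lhfpl3 at 1.89 (0.115) and Olig1 at 1.76 (0.147). Without the transplanted tumour, 5 members were called, these 4 among them, against 3.82% of all genes. Scrg1 missed the threshold with the gender label (2.74, adjusted p = 0.101) or the Y-linked level (3.49, 0.0769) in the model and without GFD-Ptch replicate 2 (3.40, 0.0744).

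Across arrays the 10 genes varied together, Pdgfra and in part Olig2 less so than the rest. Over all 18 arrays the 45 pairs had correlations of 0.49 to 0.98, with a median of 0.85. With the transplanted tumour left out the range was 0.07 to 0.97 (median 0.79), and within groups, as deviations from group means, 0.36 to 0.92 (median 0.76). These points share the whole array with its RNA quality and tumour content. Cspg5 and Lhfpl3 stood at 0.97 over the levels of 17 arrays and 0.92 over deviations, and Ptprz1 and Scrg1 stood at 0.96 and 0.76. Olig1, Olig2, Sox10, Cspg4 and Gpr17 had correlations with each other of 0.83 to 0.91 over deviations. Olig2 had levels correlated at 0.45 to 0.54 with Cspg5, Ptprz1, Lhfpl3 and Scrg1. Pdgfra had the weakest correlations, with 0.07 against Scrg1 and 0.26 against Olig1 over levels, and 0.46 and 0.43 over deviations.

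**Figure D3:**
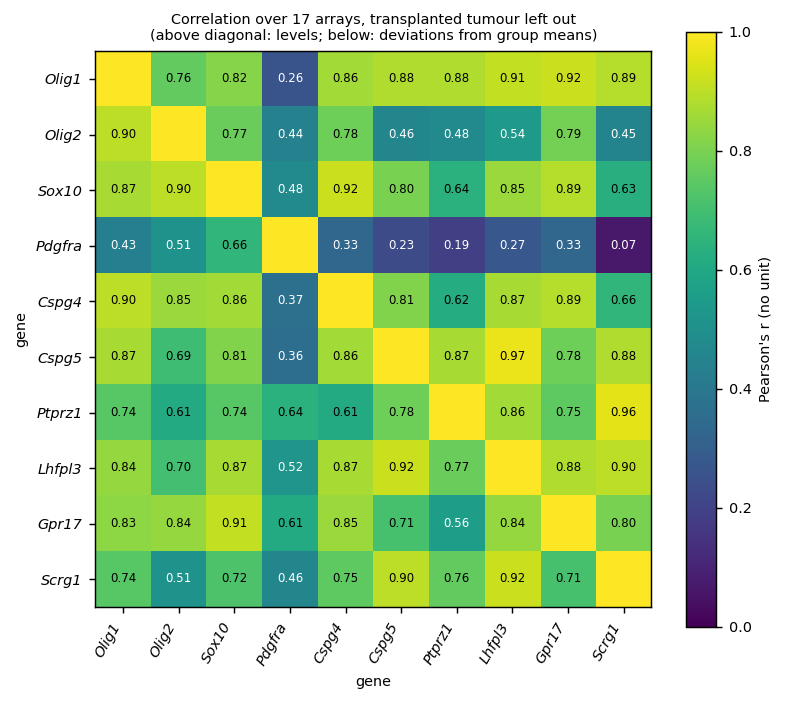
Pearson correlations (no unit) between the 10 genes (both axes) over the 17 arrays without the transplanted tumour, with levels above the diagonal and deviations from group means below it. The Pdgfra row and column are the darkest, down to 0.07 against Scrg1, and Cspg5 with Lhfpl3 is the brightest at 0.97.

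The genes that followed the mean of the 10 most closely over 18 arrays were Xylt1 (r = 0.973), a xylosyltransferase that starts the sugar chains of proteoglycans, then Susd4 (0.954), Kctd4 (0.949), Neto1 (0.948) and Slc35f1 (0.944). Xylt1 also led over the 17 arrays without the transplanted tumour (0.957), followed by B3gat2 (0.954) and Cacng4 (0.952). Of single members, Gpr17 was followed by B3gat2 (0.976) and Scrg1 by the glial connexin gene Gjc3 (0.971) and the carbonic anhydrase gene Car2 (0.971). Pdgfra was followed by Mpped2 (0.927) and Rps6kc1 (0.920), and the best match of Olig2 reached 0.850 (Rab14). These are descriptions over 18 arrays, picked as the highest among all genes, and they carry no test.

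Of 28 other genes of oligodendrocyte progenitors, 11 were called as higher and 0 as lower in GFD-Smo than in GFD-Ptch, where 8.50% of all genes were called as higher and 7.10% as lower, with a list median of 0.62, against 1.61 for the 10 genes. The largest were Gjc3 at 3.68, the orphan receptor Gpr37l1 at 2.49, the proteoglycan Bcan at 2.05 and S100a1 at 1.80. None of the 28 was called in GFD-Ptch against NG-Ptch (median -0.29), where 0.0100% of all genes were. In GFD-Smo against NG-Smo (median 0.11) none was called either, against 5.31% of all genes. Gjc3 averaged 7.28 ± 0.10 in GFD-Ptch against 9.74 ± 0.17 in NG-Ptch (SD, n = 2 and 4), and 10.96 ± 0.05 in GFD-Smo against 9.85 ± 0.74 in NG-Smo (n = 4 each). The difference between the models was called for Gjc3 (3.57, adjusted p = 0.0281), Bcan (2.05, 0.0136) and Cacng4 (1.59, 0.0219).

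Later stages of the lineage gave list medians nearer 0 in GFD-Smo against GFD-Ptch and in both Ptch comparisons with NG-Ptch. Of 15 genes of committed precursors 5 were called as higher and 0 as lower in GFD-Smo than in GFD-Ptch. They were led by Tmem163 (1.94), Enpp6 (1.18) and the Wnt effector Tcf7l2 (1.12), and the list median was 0.41. Of 17 genes of myelinating oligodendrocytes 3 were called as higher, among them Cnp (2.85) and Ugt8a (1.30), and 1 as lower, the transferrin gene Trf (-1.94). Over all genes 8.50% were called as higher and 7.10% as lower in that comparison. The myelin list had a median of -0.07 in GFD-Ptch against NG-Ptch and of 0.12 in GFI-Ptch against NG-Ptch. The committed precursor list had -0.16 and -0.10, the 28 other progenitor genes -0.29 and -0.38, and the 10 progenitor genes -1.28 and -1.15. None of these genes was called in either comparison, where 0.0100% and 0% of all genes were. In GFD-Smo against NG-Smo 0 of the 10 genes were called by limma, against 5.31% of all genes. Of the 15 committed precursor genes 2 were called as higher, Tmem163 (1.24, adjusted p = 0.0203) and Tcf7l2 (0.91, adjusted p = 0.0085). That list had 6 genes below 0 and a median of 0.06. Of the 17 myelin genes 1 was called, Trf, as lower (-1.96, adjusted p = 0.000189), and the list median was -0.08.

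Of 16 ligands and partners, 6 were called by limma as higher and 0 as lower in GFD-Smo than in GFD-Ptch, where 8.50% of all genes were called as higher. Against NG-Smo 4 were called as higher and 0 as lower, where 561 of 19938 genes were called as higher. Midkine, a ligand of Ptprz1 (gene Mdk), was 2.95 higher in GFD-Smo than in GFD-Ptch (adjusted p = 0.00365) and 2.04 higher than in NG-Smo (adjusted p = 0.0206). Pleiotrophin (Ptn) was at 0.21 and 0.12 in these comparisons and was not called. Of the platelet-derived growth factors, Pdgfa, the main ligand of Pdgfra, was not called in either (0.40, adjusted p = 0.216, and 0.17, adjusted p = 0.815), while Pdgfd, which acts through the other receptor, was higher in both (1.39, adjusted p = 0.00142, and 0.91, adjusted p = 0.0125). Id4, an inhibitor of helix-loop-helix factors, rose by 1.92 (adjusted p = 9.37e-05) and 1.59 (adjusted p = 0.000145) in the same comparisons. Pdgfrb, also on the list of fibroblast and pericyte genes, was called as higher in both (0.56, adjusted p = 0.0423, and 0.74, adjusted p = 0.00603). Tnc (2.31, adjusted p = 0.0119) and Cntn1 (1.11, adjusted p = 0.0429) were called against GFD-Ptch alone.

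Astrocyte markers moved with the 10 genes between some groups and apart from them between others. The mean level of the 14 markers was 9.23 to 9.37 in GFD-Ptch, 9.05 to 10.80 in GFI-Ptch and 10.14 to 10.30 in NG-Ptch, and 11.36 to 11.43 in GFD-Smo and 10.12 to 10.41 in NG-Smo. Against GFD-Ptch, 12 of 14 were called as higher in GFD-Smo (median 2.28, with Aldoc at 4.09 and Aqp4 at 3.49), where 8.50% of all genes were. Against NG-Smo, 8 of 14 were called as higher (median 1.08), where 561 of 19938 genes were. In that comparison 0 of the 10 progenitor genes were called. In GFD-Ptch against NG-Ptch the astrocyte median was -0.90, beside -1.28 for the 10 genes, with 0 of the 14 called by limma. In GFI-Ptch against NG-Ptch it was -0.24, beside -1.15. The part of astrocyte RNA in the values of Ptprz1, Cspg5 and Scrg1 was not tested.

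**Figure D4:**
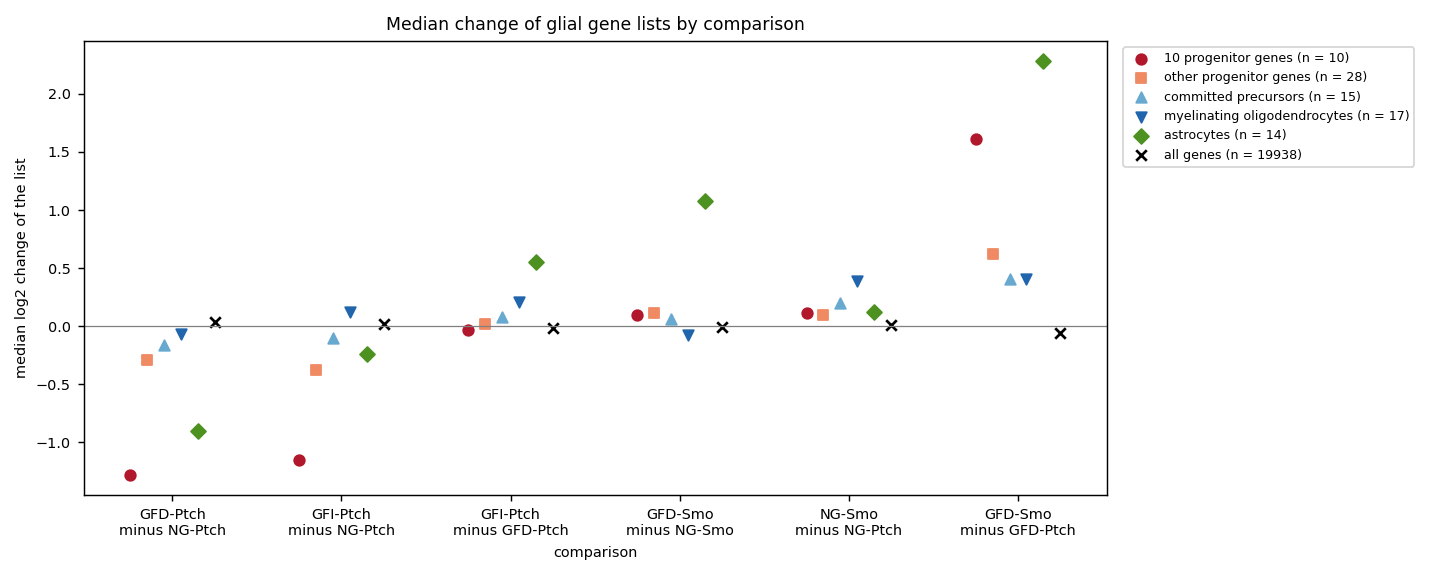
Median log2 change (vertical axis) of 5 glial gene lists and of all genes in 6 comparisons (horizontal axis), with 1 symbol per list. The 10 progenitor genes lie at -1.28 and -1.15 in the comparisons of GFD-Ptch and GFI-Ptch with NG-Ptch and at 0.10 in GFD-Smo minus NG-Smo, where astrocyte markers lie at 1.08.

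The markers of granule neuron progenitors, the cells from which such tumours arise, varied less, with a mean level of 11.69 to 11.80 in GFD-Ptch, 11.30 to 11.91 in GFI-Ptch and 11.72 to 11.93 in NG-Ptch, and 11.44 to 11.59 in GFD-Smo and 11.22 to 11.55 in NG-Smo. The proliferation list had median changes of -0.03 in GFD-Ptch and -0.05 in GFI-Ptch against NG-Ptch, with 0 of its genes called in either. Microglia and macrophage markers stood at 8.84 to 9.18 in GFD-Ptch, 9.0 to 9.76 in GFI-Ptch and 9.24 to 9.68 in NG-Ptch. None of these lists had a median change beyond 0.42 in size in the Ptch comparisons with NG-Ptch. In GFD-Smo against GFD-Ptch, 5 of 15 microglia and macrophage markers, 3 of 12 neural stem cell genes, 2 of 11 fibroblast and pericyte genes and 1 of 10 endothelial genes were called as higher and none of these as lower, against 8.50% of all genes called as higher. In that comparison 2 of 14 granule neuron genes were higher and 3 lower, 1 of 12 granule neuron progenitor genes and 1 of 13 proliferation genes were lower, and 0 of 10 muscle genes were called by limma, against 7.10% of all genes called as lower. Their part in the levels of the 10 genes was not tested.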

How the data were processed

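The deposited table held log2 expression values for 35556 probe sets on 18 arrays, which the authors made with Partek 6.6, per the submitters' processing notes. Background correction, normalization and probe summary are not given in the sources used here, and the log base was read from the range of the deposited log2 values (4.22 to 14.32). Probe sets with 1 gene symbol in the platform annotation were kept (21789), and the one with the highest mean stood for each of 19938 genes. Groups came from the sample titles. All genes were fitted with limma 3.58.1 (R 4.3.3, 13 residual and 2.448 prior degrees of freedom), and p-values were two-sided and adjusted by Benjamini-Hochberg over all genes. The fit was tested on simulated data. Tables and plots used Python 3.11.15. Besides the 10 genes, 13 lists with 192 entries (187 measured) of other glial, neuronal, vascular, immune, muscle and cycling genes were used. The 10 genes, the lists and the alternatives were chosen with earlier results of these data known. Named beyond the 10 genes were ligands and partners, up to 4 called members of a list per comparison, and the genes most correlated with the 10 or their mean, without predicted loci; correlations over 17 arrays were added after the data were seen. Alternatives were quantile normalization, median centring, leaving out dim genes (no group mean above 8.21), the mean of all probe sets, the gender label, the Y-linked level or the replicate number in the model, array weights, only the groups compared, and leaving out each array. Leaving out the transplanted tumour and NG-Smo replicate 4 together, and using only arrays without Y-linked transcripts (with and without the transplanted tumour), were added after the data were seen.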

Additional observations from a re-analysis of the deposited data

Results flagged for a closer look

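In 40 sets of 4 arrays (10 genes in 4 groups), the most extreme array was tested for a gap to the others beyond Dixon's 95% limit, which chance exceeds in about 1 of 20 sets. 3 values passed: Pdgfra at 9.26 in the transplanted GFI-Ptch tumour, Sox10 at 8.78 in GFD-Smo replicate 4, and Cspg4 at 9.53 in NG-Ptch replicate 4. The change from NG to GFD differed between Smo and Ptch tumours for Scrg1, at 3.57 on the log2 scale, by limma's test of the difference. In Smo tumours that change also goes with the Cre driver.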

How the results depend on the processing

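Of 2000 changes of single members under the alternatives, 1865 kept their direction and their side of the threshold. Only 170 of these 1865 were called, the rest being uncalled in both fits. A further 44 passed the threshold newly, 26 lost it and 65 changed sign, 0 of these 65 called. Members called in GFD-Ptch minus NG-Ptch (0) became 4 with array weights, 5 with only the groups compared and 5 without the transplanted tumour and NG-Smo replicate 4. Calls over all genes rose under these settings too, to 0.978% called as lower with only the groups compared, and their counts are given below. In GFD-Smo minus NG-Smo (0) the same settings gave 1, 2 and 2, and for the difference between the models (1) 5, 5 and 5, with 2 after dim genes were left out and 0 with the gender label or the Y-linked level. GFD-Smo minus GFD-Ptch (6) had 3 with the gender label, and Olig1 and Gpr17 were lost with the Y-linked level. The gender label moved the median member change to -0.21 in GFD-Ptch minus NG-Ptch, to 0.89 in GFD-Smo minus GFD-Ptch and to 0.53 for the difference between the models, and in GFI-Ptch minus NG-Ptch it moved to -0.51 with array weights and to -0.37 among arrays without Y-linked transcripts once the transplanted tumour was also left out. Leaving out 1 array gave 0 to 4, 0 to 1, 0 to 5 and 1 to 6 members for GFD-Ptch minus NG-Ptch, GFD-Smo minus NG-Smo, the difference and GFD-Smo minus GFD-Ptch, and 0 to 0 for the other 3 comparisons. The medians then ranged from -1.39 to -1.18 for GFD-Ptch and from -1.41 to -0.63 for GFI-Ptch against NG-Ptch, from -0.23 to 0.35 for GFI-Ptch against GFD-Ptch, from -0.11 to 0.31 for GFD-Smo against NG-Smo, from -0.12 to 0.29 for NG-Smo against NG-Ptch, from 1.51 to 1.71 for GFD-Smo against GFD-Ptch and from 1.28 to 1.90 for the difference.

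The sign changes were these. With the gender label, Olig2 (0.50), Pdgfra (0.09) and Sox10 (0.05) turned in GFD-Ptch minus NG-Ptch, Olig1 (0.23) and Olig2 (0.08) in NG-Smo minus NG-Ptch, Pdgfra (-0.45) and Olig2 (-0.19) in GFD-Smo minus GFD-Ptch, and Sox10 (-0.28), Olig2 (-0.27), Cspg4 (-0.13) and Pdgfra (-0.10) for the difference. In GFI-Ptch minus GFD-Ptch, Olig1, Sox10, Pdgfra, Cspg4 and Gpr17 turned to 0.53, 0.29, 0.02, 0.24 and 0.25 with array weights and to 0.48, 0.22, 0.12, 0.10 and 0.15 without both arrays, and without 1 array they ranged from -0.39 to 0.48, -0.21 to 0.22, -0.74 to 0.12, -0.24 to 0.10 and -0.32 to 0.15. In GFD-Smo minus NG-Smo, Pdgfra turned to 0.09 with the Y-linked level, 0.04 without both arrays and 0.20 among arrays without Y-linked transcripts. Without 1 array, Pdgfra, Cspg4, Cspg5, Lhfpl3 and Gpr17 ranged there from -0.22 to 0.19, -0.38 to 0.01, -0.24 to 0.05, -0.28 to 0.12 and -0.19 to 0.61. In NG-Smo minus NG-Ptch, Sox10 (0.00), Cspg4 (-0.02), Ptprz1 (-0.09) and Gpr17 (-0.11) turned with the replicate block, and Ptprz1 (-0.04) with array weights, without both arrays and among arrays without Y-linked transcripts. Without 1 array, Olig1, Sox10, Cspg4, Ptprz1 and Gpr17 ranged there from -0.34 to 0.12, -0.09 to 0.35, -0.14 to 0.25, -0.07 to 0.33 and -0.25 to 0.54. Pdgfra in GFD-Smo minus GFD-Ptch, at 0.00, turned to -0.02 with quantile normalization and -0.01 with array weights, and ranged from -0.16 to 0.17 without 1 array.

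Counts over all genes moved more, and the cause was not tested. In GFD-Ptch minus NG-Ptch (2) they were 4 with quantile normalization and with median centring, 0 with the gender label, the Y-linked level or the replicate block, 565 with array weights, 245 with only the groups compared, 689 without both arrays and 1 to 144 without 1 array. In GFI-Ptch minus NG-Ptch (0) they were 12 with median centring, 4 without dim genes, 2 with the gender label, 180 with array weights, 1 with only the groups compared, 10 without both arrays, 2 among arrays without Y-linked transcripts (4 with the transplanted tumour also left out) and 0 to 8 without 1 array. In GFI-Ptch minus GFD-Ptch (1) they were 2 with quantile normalization, 0 with the gender label, the Y-linked level, the replicate block or only the groups compared, 26 with array weights, 64 without both arrays and 1 to 47 without 1. In GFD-Smo minus NG-Smo (1058) they were 1740 with array weights, 1722 without both arrays, 290 among arrays without Y-linked transcripts and 643 to 1553 without 1. In NG-Smo minus NG-Ptch (208) they were 96 with the gender label, 34 with the replicate block, 419 with array weights, 42 with only the groups compared, 1169 without both arrays, 26 among arrays without Y-linked transcripts and 75 to 384 without 1. In GFD-Smo minus GFD-Ptch (3110) they were 5906 with array weights, 6709 with only the groups compared, 5958 without both arrays and 997 to 4376 without 1. For the difference (759) they were 188 with the gender label, 159 with the Y-linked level, 417 with the replicate block, 1484 with array weights, 1293 with only the groups compared, 1283 without both arrays and 248 to 1285 without 1.

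Of 29 same-numbered pairs from different groups 3 had deviations correlated above 0.1 (median -0.03), against 27 of 99 other pairs (median 0.02). Deviations from the mean of a small group depend on each other, so these values cannot settle whether replicate numbers pair the arrays. With the replicate block 4 of the 6 members stayed called in GFD-Smo minus GFD-Ptch (Olig1 at an adjusted p of 0.0788 and Gpr17 at 0.0950 did not), and Scrg1 stayed called for the difference between the models.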
